A study of Danio rerio with 6 samples.

Results

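The genes described here encode the subunits of ionotropic neurotransmitter receptors, the ion channels that open when glutamate, GABA, glycine or acetylcholine binds. They were taken by symbol: gria, grin, grik and grid followed by a digit, gabr, glra, glrb and chrn. Of 31452 genes listed, 86 matched, and 83 of these were kept as members. Of the other matches, 2 are not receptor subunits, and the last was CHRNA9 (2 of 3), which had 3 counts in all and missed the minimum of 10. Members fell into 8 classes: 8 AMPA, 13 NMDA, 8 kainate and 3 delta genes of the glutamate receptors, 21 GABA-A genes with the gabrr genes among them, 7 glycine receptor genes, and 17 neuronal and 6 muscle nicotinic genes.

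Whole zebrafish were collected 3 days post fertilisation, 15 to a pool. Embryos of 3 pools made EWSR1-ERG, the fusion protein of some Ewing sarcomas, fused to GFP from the 14xUAS transgene. The enhancer trap line Et(E1b:Gal4-VP16)s1101t drove it in neurons, and the Tg(UAS:Kaede) s1999t reporter came from the same parent. The other 3 pools were wild-type siblings of that cross, described as not expressing the fusion. The labels do not say whether these siblings carried the Gal4 driver or the Kaede reporter, nor whether each pool had its own clutch. All p-values thus set differences against pool-to-pool spread, which may be partly technical. Expression of the transgene itself was not analysed here, so the labels were not checked against it. The comparison asks which receptor subunit genes differ in embryos whose neurons make the fusion.

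Fast signals between neurons, and between nerve and muscle, pass through these channels. AMPA receptors carry most fast excitation, NMDA receptors admit calcium, and GABA-A and glycine receptors pass chloride and mostly inhibit mature neurons. Glutamate receptors assemble from 4 subunits, whereas GABA-A, glycine and nicotinic receptors are rings of 5. Each kind of subunit sets where the receptor sits and how it opens. The muscle nicotinic receptor belongs to the muscle fibre at the neuromuscular junction and the other nicotinic receptors mainly to neurons.

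The EWSR1-ERG libraries held 6474430, 5611197 and 13338802 counts and the wild-type libraries 5672149, 5154500 and 4771843 counts. Member genes took 0.0466% to 0.0658% of the counts in EWSR1-ERG pools and 0.0665% to 0.0952% in wild-type pools. Levels below are CPM, read counts scaled to a common library total. CPM are not per length, so levels of different genes are compared only to name the member of highest CPM in a class. That member need not have the most transcripts. In bulk tissue, fewer cells of a type and less RNA per cell cannot be told apart. Mitochondrially encoded genes took 2.64% to 2.99% of the counts in EWSR1-ERG pools and 3.87% to 4.35% in wild-type pools.

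Some receptor subunit genes of neurons fell in the EWSR1-ERG pools and none rose, while in the muscle receptor 1 gene rose and 1 fell. Of 61 members tested, 13 fell, 1 rose and 47 did not pass, by edgeR's quasi-likelihood test with an adjusted p under 0.05. Among all 17557 genes tested, 9.87% fell and 7.46% rose, against 21.3% of these members that fell. Leaving out the muscle receptor, 12 of 56 tested members fell, none rose and 44 did not pass, and 49 had a negative log2 fold change, against 49.4% of all tested genes. In 25 of the 56, every EWSR1-ERG pool lay below every wild-type pool, against 18.0% of all tested genes, and the groups overlapped in the other 31. Some of the 25 passed the filter on low counts through their wild-type pools, among them gabrr1 and chrnb3b, which also count among the 12. That share thus does not describe the members as a set. Without wild type replicate 1 the number of lower members was 6 of 61 (6.34% of all genes tested), and without wild type replicate 2 it was 7 of 64 (5.43%). Tested against a 1.5-fold change it was 3 (2.76%). It was 12 with DESeq2 (8.22%), 11 with limma-voom (9.82%) and 14 of 83 with no filter on low counts (6.92%).

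The median log2 fold change was negative in each of the 7 classes other than muscle nicotinic. It was -0.52 for AMPA, -0.48 for NMDA, -0.53 for kainate, -0.34 for delta, -0.42 for GABA-A, -0.68 for glycine and -0.69 for neuronal nicotinic genes. The median was 0.02 for muscle nicotinic genes and 0.00465 over all tested genes. Without EWSR1-ERG replicate 1 the neuronal nicotinic median was -0.40, and without EWSR1-ERG replicate 3 it was -0.97. The filter on low counts was run anew each time, so the genes covered can differ. Whether classes differed was not tested. These medians cover only members that passed the filter on low counts, which a gene can pass through the higher group alone.

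Summed over its 21 genes, the GABA-A class stood at 68.0, 96.6 and 92.2 CPM in EWSR1-ERG pools, against 153, 152 and 126 CPM in wild-type pools. The NMDA class stood at 76.9, 141 and 127 CPM in EWSR1-ERG pools, against 233, 211 and 158 CPM in wild-type pools. In these NMDA sums grin1a averaged 42.4 CPM in EWSR1-ERG pools and 80.3 CPM in wild-type pools, and grin1b 28.7 and 60.0 CPM. The kainate, delta and glycine sums also did not overlap between the groups. In the glycine sums glrbb averaged 35.0 CPM in EWSR1-ERG pools and 57.2 CPM in wild-type pools. The AMPA sums overlapped, with 65.2, 106 and 104 CPM in EWSR1-ERG pools and 168, 156 and 96.2 CPM in wild-type pools. So did the neuronal nicotinic sums, at 34.9, 45.1 and 50.1 CPM in EWSR1-ERG pools and 62.8, 61.6 and 46.1 CPM in wild-type pools. Muscle nicotinic sums were 131, 138 and 132 CPM in EWSR1-ERG pools and 129, 124 and 142 CPM in wild-type pools, where neither group stood apart.

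**Figure D1:**
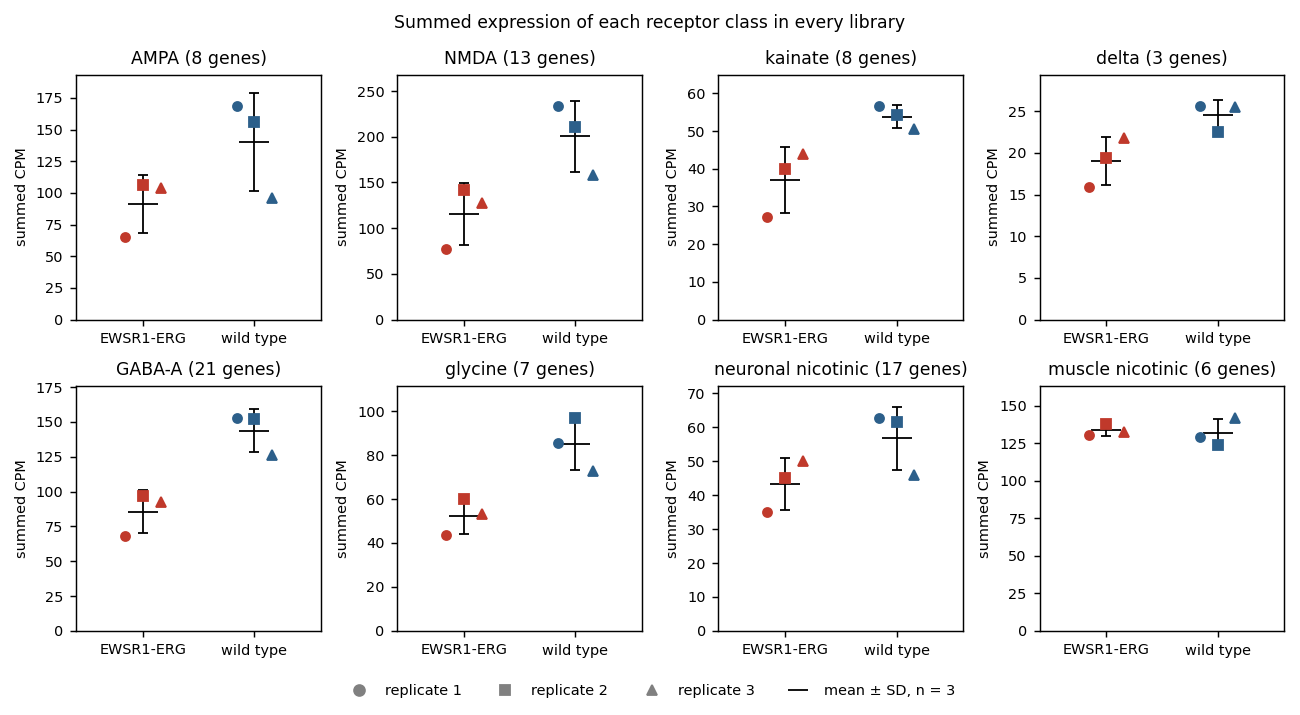
Summed CPM of each receptor class (vertical axis, from 0) in the 3 EWSR1-ERG and 3 wild-type libraries, 1 point per library, with mean and SD. GABA-A sums lie at 68.0 to 96.6 CPM in EWSR1-ERG pools and at 126 to 153 CPM in wild-type pools, whereas the muscle nicotinic sums overlap.

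Within each group 1 pool was usually the lowest. Among the 56 tested members outside the muscle receptor, EWSR1-ERG replicate 1 was the lowest EWSR1-ERG pool in 46, and wild type replicate 3 was the lowest wild-type pool in 36. Over all tested genes those shares were 38.8% and 38.4%.

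Among GABA-A genes, 4 of 16 tested fell and none rose, beside 9.87% and 7.46% of all tested genes. The alpha6 subunit gene gabra6a (ENSDARG00000075058, chromosome 14 of Zv9) had 1.991, 2.0998 and 2.304 CPM in EWSR1-ERG pools, against 13.5, 13.4 and 11.7 CPM in wild-type pools. The groups lay far apart with little spread in either. It averaged 2.13 ± 0.159 CPM in EWSR1-ERG pools and 12.9 ± 0.987 CPM in wild-type pools (SD, n = 3 each), a 5.93-fold lower level (log2 fold change -2.57, SE 0.216, adjusted p = 1.99e-06). In mammals alpha6 is the GABA-A subunit of cerebellar granule cells.

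The gene gabrr1 (ENSDARG00000043902, chromosome 20) had 1.38, 1.92 and 0.921 CPM in EWSR1-ERG pools, against 5.76, 5.81 and 3.39 CPM in wild-type pools. Its subunit can form a receptor by itself and is best known from retinal bipolar cells. Every EWSR1-ERG pool was below every wild-type pool, with a 3.83-fold lower level (log2 fold change -1.94, SE 0.351, adjusted p = 0.00161). With 9, 11 and 12 counts in EWSR1-ERG pools, gabrr1 passed the filter on low counts through its wild-type pools. The beta2 gene gabrb2, for a subunit that helps form the GABA binding site (ENSDARG00000079586, chromosome 14) had 6.89, 12.1 and 10.7 CPM in EWSR1-ERG pools, against 19.1, 20.1 and 15.6 CPM in wild-type pools. It too fell without overlap (log2 fold change -0.89, SE 0.197, adjusted p = 0.00657).

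The other 12 tested GABA-A genes did not pass, and their log2 fold changes ran from -0.74 for GABRA2 (3 of 3) to 0.41 for GABRG3. Members named beyond the naming rule, here and below, were chosen after their values were seen. The delta gene gabrd, whose subunit sits outside synapses, had 10.9, 20.5 and 19.6 CPM in EWSR1-ERG pools and 28.6, 27.7 and 21.2 CPM in wild-type pools (log2 change -0.60 with an SE of 0.210, adjusted p = 0.0710). The alpha genes gabra5 and gabra3 stood at -0.26 (SE 0.299) and -0.07 (SE 0.272).

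**Figure D2:**
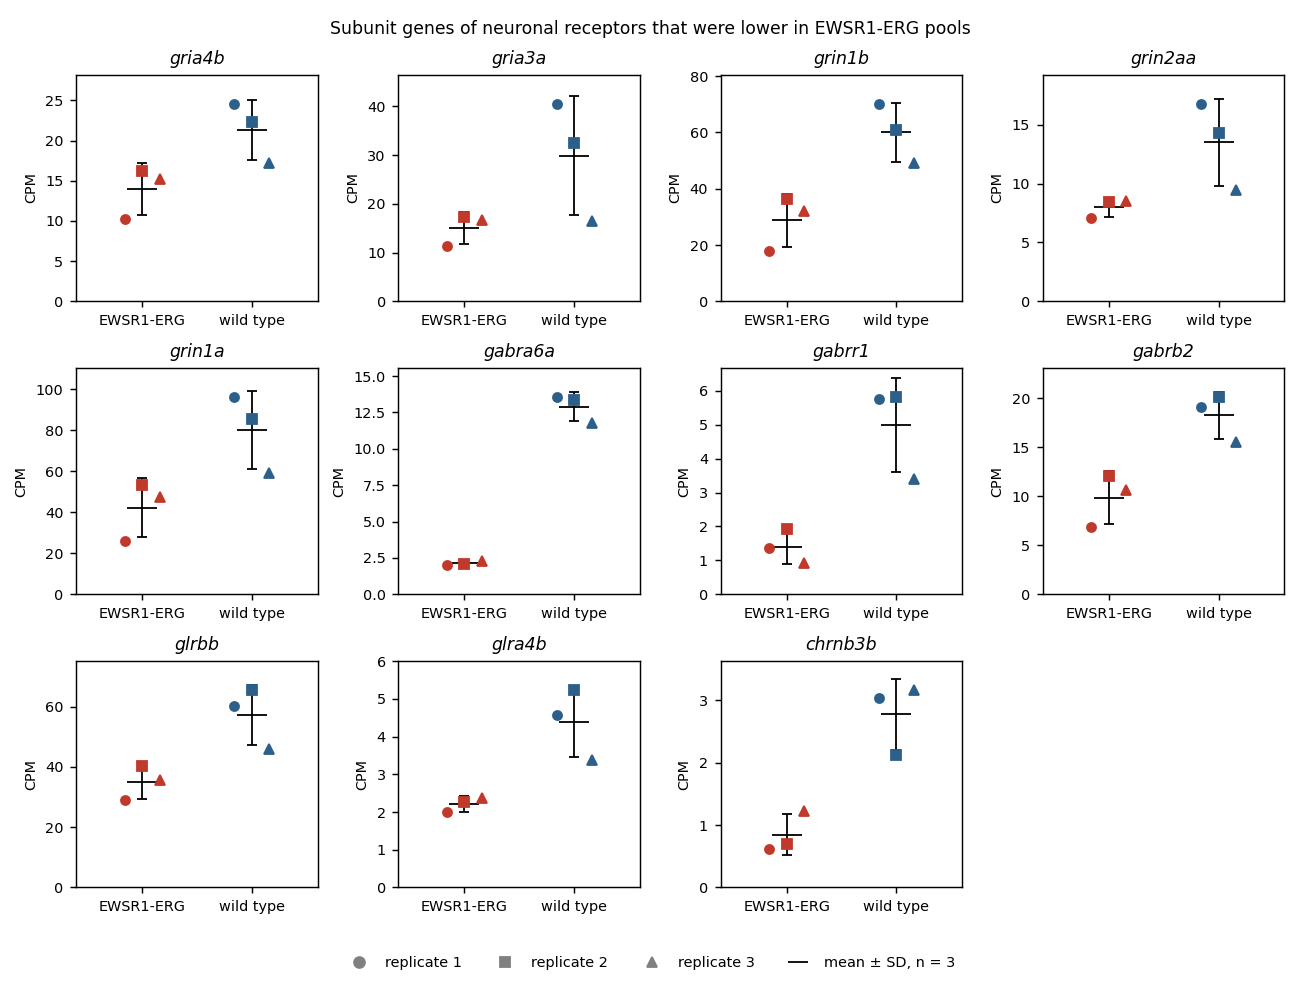
CPM in every library (vertical axes, each from 0) for 11 of the 12 subunit genes outside the muscle receptor that fell, 1 point per library, with mean and SD. The groups overlap only for gria3a, where wild type replicate 3 at 16.5 CPM lies below EWSR1-ERG replicate 2 at 17.3 CPM.

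Glycine receptors, which inhibit motor circuits of hindbrain and spinal cord, had 2 of 6 tested genes lower and none higher. Of all tested genes, 9.87% were lower and 7.46% higher. The beta subunit binds gephyrin and so holds the receptor at the synapse. Its gene glrbb (ENSDARG00000052769, chromosome 14) had 28.9, 40.4 and 35.6 CPM in EWSR1-ERG pools, against 60.1, 65.4 and 46.1 CPM in wild-type pools. The groups did not overlap (log2 fold change -0.71, SE 0.149, adjusted p = 0.00458). The alpha4 gene glra4b (ENSDARG00000058103, chromosome 5) had 1.99, 2.27 and 2.38 CPM in EWSR1-ERG pools, against 4.57, 5.23 and 3.39 CPM in wild-type pools. No pools overlapped, and the difference was -0.98 on the log2 scale (SE 0.284, adjusted p = 0.0287). This call ended when EWSR1-ERG replicate 1 (-0.91), replicate 2 (-0.98) or replicate 3 (-1.05), or wild type replicate 1 (-0.96) or 2 (-0.85), was left out, and held without wild type replicate 3. With DESeq2 the gene did not pass (adjusted p = 0.0908). The second copies, glrba at -0.86 (SE 0.284, adjusted p = 0.0509) and glra4a at -0.62 (SE 0.217, adjusted p = 0.0644), did not pass, although neither overlapped between the groups. Every EWSR1-ERG pool thus lay below every wild-type pool in 4 of 6 tested glycine genes, against 18.0% of all tested genes. GLRA2 and GLRA3 stood at -0.57 (SE 0.424) and -0.64 (SE 0.538).

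NMDA receptors need the GluN1 subunit, and both genes for it fell. The gene grin1b (ENSDARG00000025728, chromosome 5) had 17.9, 36.2 and 32.0 CPM in EWSR1-ERG pools, against 70.1, 60.8 and 49.2 CPM in wild-type pools. It was 2.09-fold lower without overlap (log2 fold change -1.06, SE 0.225, adjusted p = 0.00949). The gene grin1a (ENSDARG00000027828, chromosome 21) had 26.2, 53.5 and 47.4 CPM in EWSR1-ERG pools, against 96.2, 85.6 and 59.2 CPM in wild-type pools (log2 change -0.92 with an SE of 0.261, adjusted p = 0.0423). EWSR1-ERG replicate 1 was the lowest pool for both. The GluN2A gene grin2aa (ENSDARG00000034493, chromosome 3) had 7.04, 8.40 and 8.52 CPM in EWSR1-ERG pools, against 16.8, 14.3 and 9.49 CPM in wild-type pools (log2 change -0.77 with an SE of 0.209, adjusted p = 0.0218). The call of grin1a ended with no filter on low counts (adjusted p = 0.196), without EWSR1-ERG replicate 3 (-1.02) and without wild type replicate 1 (-0.78) or 2 (-0.88). That of grin2aa ended without wild type replicate 1 (-0.58) or 2 (-0.73).

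The other 7 tested NMDA genes did not pass. The GluN2B gene grin2bb, whose subunit predominates early in mammalian brain development, had 7.96, 12.4 and 14.3 CPM in EWSR1-ERG pools and 16.9, 18.8 and 12.0 CPM in wild-type pools (log2 change -0.44 with an SE of 0.220, adjusted p = 0.202). Both GluN2D genes had small positive values, 0.30 (SE 0.348) for grin2da and 0.31 (SE 0.400) for grin2db. The ratio of GluN2A to GluN2B counts, over all copies, averaged 0.43 ± 0.21 in EWSR1-ERG pools and 0.63 ± 0.15 in wild-type pools on the log2 scale (SD, n = 3 each; two-sided exact permutation p = 0.3, adjusted p = 0.4).

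All 8 AMPA genes had a negative log2 fold change, and 2 fell, against 49.4% and 9.87% of all tested genes. The GluA3 gene gria3a (ENSDARG00000032737, chromosome 5) had 11.3, 17.3 and 16.6 CPM in EWSR1-ERG pools, against 40.5, 32.5 and 16.5 CPM in wild-type pools. Wild type replicate 3 thus lay among the EWSR1-ERG pools (log2 change -0.99 with an SE of 0.289, adjusted p = 0.0429). The GluA4 gene gria4b (ENSDARG00000059368, chromosome 21) had 10.3, 16.3 and 15.3 CPM in EWSR1-ERG pools, against 24.5, 22.3 and 17.2 CPM in wild-type pools (log2 change -0.61 with an SE of 0.187, adjusted p = 0.0360). The GluA2 gene gria2b, whose subunit limits calcium entry and which had the highest CPM of the class, had 15.2, 24.0 and 24.3 CPM in EWSR1-ERG pools and 33.9, 36.6 and 24.9 CPM in wild-type pools. It narrowly missed the threshold (log2 fold change -0.58, SE 0.188, adjusted p = 0.0509). The GluA1 genes gria1a and gria1b stood at -0.26 (SE 0.259) and -0.14 (SE 0.311).

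The AMPA calls did not hold in every setting, nor with every pool left out. With 1 pool left out, that of gria3a held without wild type replicate 3 (-1.26) and ended without EWSR1-ERG replicate 1 (-0.84), 2 (-1.08) or 3 (-1.08) and without wild type replicate 1 (-0.71) or 2 (-0.93). It also ended with limma-voom (adjusted p = 0.0715) and with no filter on low counts (adjusted p = 0.172). That of gria4b ended without EWSR1-ERG replicate 1 (-0.45) and without wild type replicate 1 (-0.50) or 2 (-0.59). By contrast gria2b passed without EWSR1-ERG replicate 3 (-0.71) or wild type replicate 3 (-0.72), and by DESeq2. The log2 ratio of GluA2 to GluA1 counts was 1.95, 2.43 and 2.57 in EWSR1-ERG pools and 2.61, 2.81 and 2.70 in wild-type pools. The groups did not overlap (two-sided exact permutation p = 0.1, adjusted p = 0.2), and with 3 pools a side no smaller p can be had.

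No kainate or delta gene passed by edgeR's quasi-likelihood test, and DESeq2 and limma-voom called none either. At an unadjusted p under 0.05 stood 2 of 7 kainate and 0 of 3 delta genes, against 30.1% of all tested genes. The kainate gene grik5, for a high-affinity subunit, had 6.13, 7.17 and 9.37 CPM in EWSR1-ERG pools and 14.9, 15.5 and 7.91 CPM in wild-type pools (log2 change -0.73 with an SE of 0.247, adjusted p = 0.0572). It passed with no filter on low counts and without EWSR1-ERG replicate 3 (-0.96) or wild type replicate 3 (-0.96). For grik1a, grik4, GRIK2 (1 of 2) and GRIK5 (2 of 2) every EWSR1-ERG pool was below every wild-type pool, at log2 fold changes from -0.69 to -0.31. These were 4 of 7 tested kainate genes, against 18.0% of all tested genes. GRIK2 (1 of 2) passed without EWSR1-ERG replicate 3. GRIK3 stood at 0.14 (SE 0.322). The delta genes grid1b and GRID1 (2 of 2) stood at -0.34 (SE 0.202) and -0.48 (SE 0.296).

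**Figure D3:**
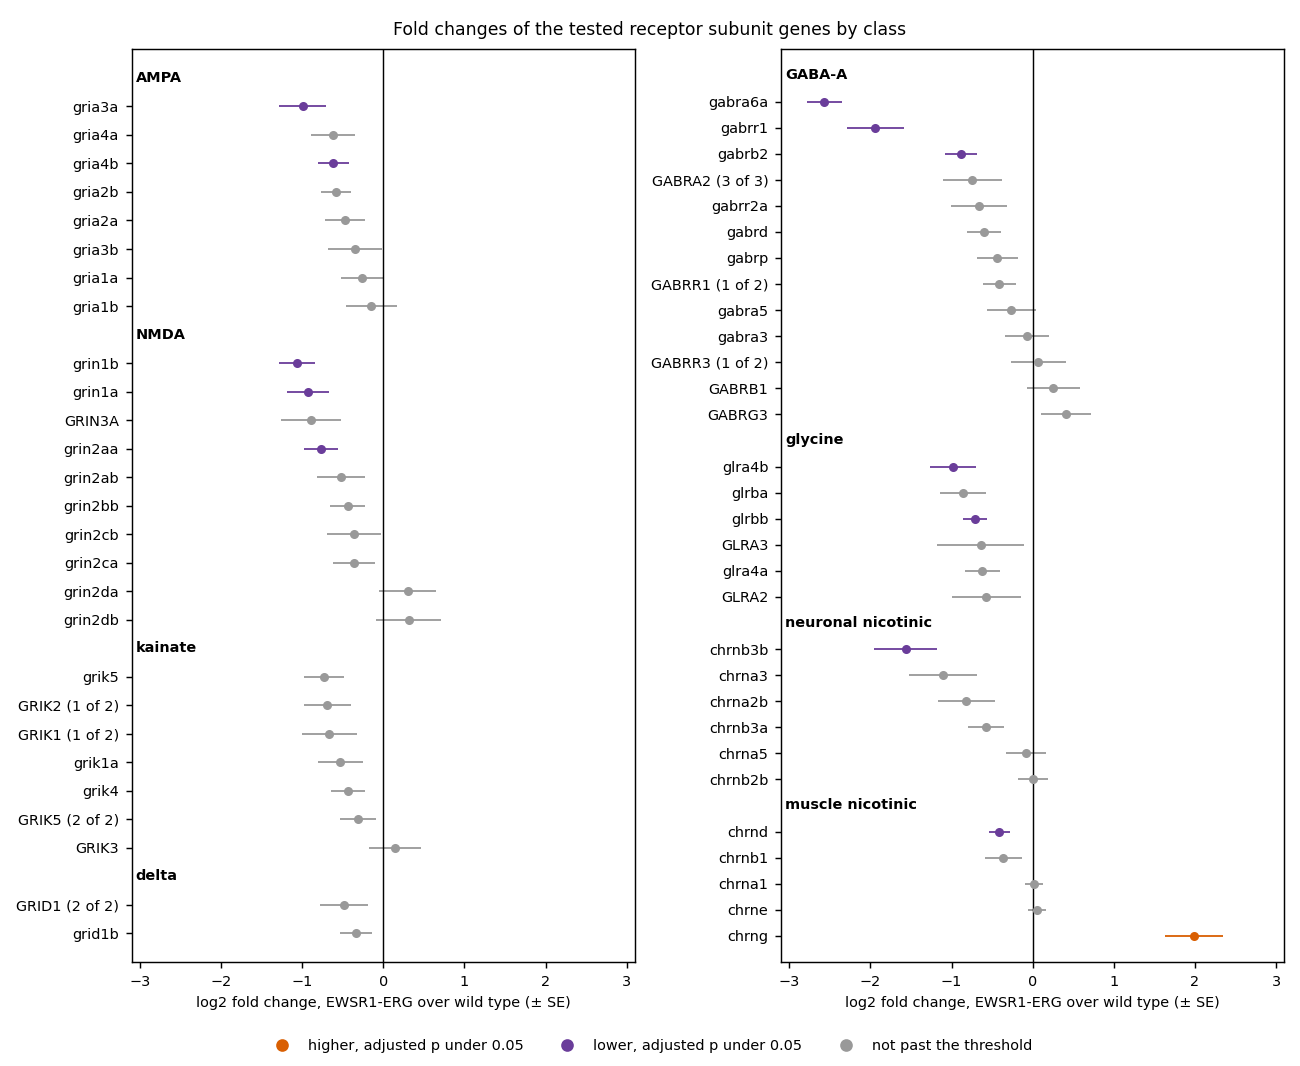
Log2 fold change of EWSR1-ERG over wild type with its SE (horizontal axis) for 57 of the 61 tested members, by class, coloured by call. Most genes outside the muscle receptor lie left of 0, from -2.57 for gabra6a to 0.41 for GABRG3, and chrng at 1.99 is the only called gene to the right.

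Among neuronal nicotinic genes 11 of 17 were too low to be tested, and 1 of the other 6 fell, beside 9.87% of all tested genes. The beta3 gene chrnb3b (ENSDARG00000038508, chromosome 14) had 0.613, 0.700 and 1.23 CPM in EWSR1-ERG pools, against 3.05, 2.13 and 3.16 CPM in wild-type pools. Beta3 is an accessory subunit, and its gene was 2.95-fold lower without overlap (log2 fold change -1.56, SE 0.387, adjusted p = 0.0127), a call that ended without wild type replicate 1 (-1.49). The genes chrna3, chrnb3a and chrna2b also had no overlap, at -1.11 (SE 0.419, adjusted p = 0.0870), -0.57 (SE 0.221, adjusted p = 0.0938) and -0.82 (SE 0.351, adjusted p = 0.131). Of these, chrna3 and chrna2b passed without EWSR1-ERG replicate 3. With 4, 4 and 16 counts in EWSR1-ERG pools, chrnb3b passed the filter on low counts through its wild-type pools, as did chrna3 and chrna2b. Every EWSR1-ERG pool lay below every wild-type pool in 4 of 6 tested genes of the class, against 18.0% of all tested genes. As chrnb3b, chrna3 and chrna2b are among these 4, that share does not describe the class. The beta2 gene chrnb2b, which had the highest CPM of the class, had 12.4, 15.2 and 16.7 CPM in EWSR1-ERG pools and 16.1, 17.2 and 11.1 CPM in wild-type pools. Its log2 fold change was 0.00266 (SE 0.184), and the sign turned with the upper quartile scaling and with 3 of the left-out pools. The accessory subunit gene chrna5 stood at -0.09 (SE 0.248).

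The muscle receptor combines a pair of alpha1 subunits with beta1, delta and either gamma or epsilon. In mammals gamma marks fetal muscle and epsilon replaces it as the junction matures. The gamma gene chrng (ENSDARG00000086647, chromosome 2) had 14.5, 13.5 and 8.68 CPM in EWSR1-ERG pools, against 2.201, 1.742 and 5.422 CPM in wild-type pools. The groups did not overlap, although wild type replicate 3 and EWSR1-ERG replicate 3 lay closest. Expression averaged 12.2 ± 3.13 CPM in EWSR1-ERG pools and 3.12 ± 2.01 CPM in wild-type pools (SD, n = 3 each), 3.96-fold higher (log2 fold change 1.99, SE 0.352, adjusted p = 0.00213). The call held in all 14 other settings tried, with log2 fold changes from 1.70 to 2.58, the highest without wild type replicate 3. It was the only member that rose.

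The other muscle subunit genes did not share this rise. The epsilon gene chrne (ENSDARG00000034307, chromosome 5) had 38.3, 38.0 and 34.6 CPM in EWSR1-ERG pools and 36.1, 33.1 and 37.7 CPM in wild-type pools (log2 change 0.05 with an SE of 0.113, adjusted p = 0.819). The alpha1 gene chrna1 (ENSDARG00000009021, chromosome 6) had 49.2, 59.1 and 60.5 CPM in EWSR1-ERG pools and 57.4, 54.2 and 55.6 CPM in wild-type pools. Its difference was 0.02 (SE 0.112, adjusted p = 0.946) and turned sign without EWSR1-ERG replicate 2 or 3 or wild type replicate 2. The delta gene chrnd (ENSDARG00000019342, chromosome 24) had 21.7, 20.3 and 23.7 CPM in EWSR1-ERG pools, against 26.6, 28.3 and 33.4 CPM in wild-type pools. It was 1.33-fold lower (log2 fold change -0.41, SE 0.133, adjusted p = 0.0472), and this call ended whichever pool was left out, at -0.48 to -0.31. It also ended with DESeq2 (adjusted p = 0.123), limma-voom (adjusted p = 0.0582), no filter (adjusted p = 0.0547) and the filter of 1 CPM in 3 libraries (adjusted p = 0.0501), and held in 2 of 14 other settings. The beta1 gene chrnb1 stood at -0.37 (SE 0.228, adjusted p = 0.314), with 6.28, 5.60 and 4.45 CPM in EWSR1-ERG pools and 6.43, 6.39 and 7.91 CPM in wild-type pools.

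On the log2 scale the ratio of chrne to chrng counts was 1.39, 1.49 and 1.99 in EWSR1-ERG pools and 3.98, 4.17 and 2.77 in wild-type pools. It averaged 1.62 ± 0.32 in EWSR1-ERG pools and 3.64 ± 0.76 in wild-type pools, a difference of -2.02 (SD, n = 3 each; two-sided exact permutation p = 0.1, again the smallest possible here, adjusted p = 0.2). The difference was negative with each pool left out, at -2.45 to -1.75. Of the 4 ratios compared, the last was that of GLRA1 to GLRA2 type glycine receptor counts. It averaged -0.38 ± 0.50 in EWSR1-ERG pools and -0.75 ± 1.00 in wild-type pools (exact permutation p = 0.7).

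**Figure D4:**
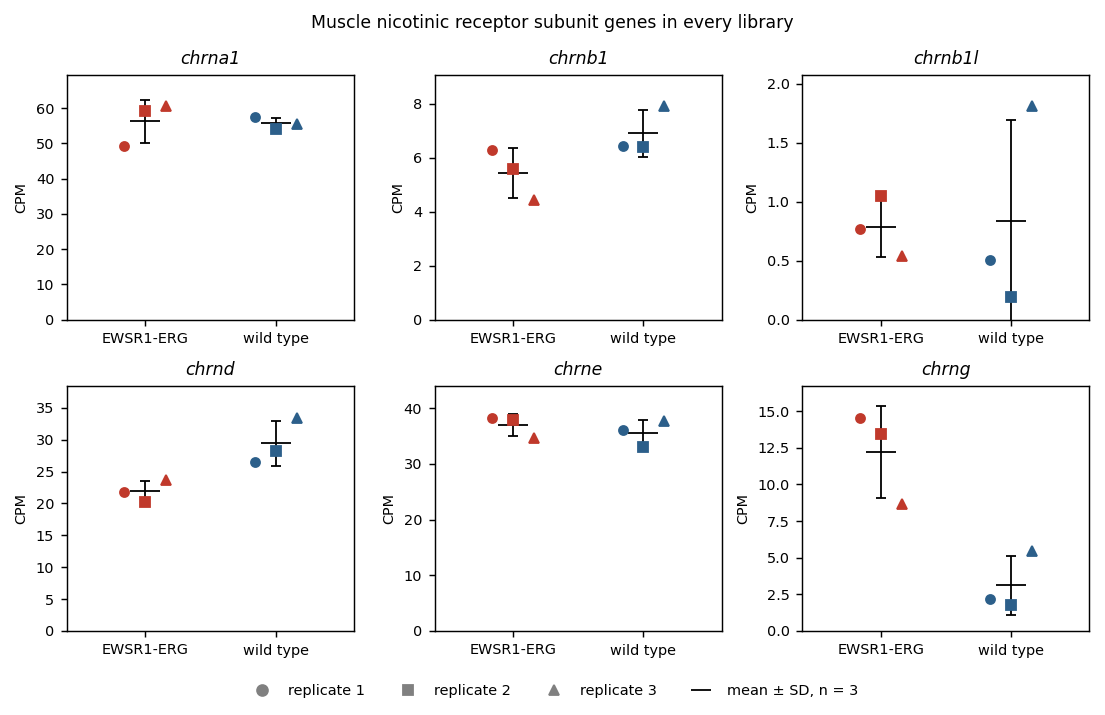
CPM in every library (vertical axes, each from 0) for the 6 muscle nicotinic genes, 1 point per library, with mean and SD. The EWSR1-ERG pools lie at 8.68 to 14.5 CPM for chrng, all above the wild-type pools at 1.74 to 5.42 CPM, while chrna1 and chrne overlap between the groups.

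Genes of muscle and its junction are the setting for these values. Of 43 skeletal muscle genes tested, 30 did not pass, and the median log2 fold change of the 43 was -0.01. Of the 43, 8 rose and 5 fell (11.6%), against 7.46% and 9.87% of all tested genes. Those with the smallest p were desma, for the filament protein desmin (0.59, adjusted p = 0.0028), ryr3, a calcium release channel gene (0.95, adjusted p = 0.00899), and myhz1.2, a fast myosin heavy chain gene (0.67, adjusted p = 0.00921), among the higher. Among the lower were mybpc1, for a myosin-binding protein of slow muscle (-2.06, adjusted p = 5.91e-07), the glycolytic gene pgam2 (-0.93, adjusted p = 9.92e-05) and casq1a, for a calcium store protein (-0.80, adjusted p = 0.00262). Their summed level was 90504 to 122491 CPM in EWSR1-ERG pools and 103094 to 117112 CPM in wild-type pools, and no gene of the list was at 0. Of 10 neuromuscular junction genes tested, 3 fell: slc18a3a, the vesicular acetylcholine transporter gene of motor neurons (-0.86, adjusted p = 0.0049), colq, whose product anchors acetylcholinesterase (-1.09, adjusted p = 0.0170), and ache, the esterase itself (-0.53, adjusted p = 0.0468). The clustering protein gene rapsn (0.15, SE 0.129) and the receptor kinase gene musk (0.67, SE 0.293, adjusted p = 0.136) did not pass. Nor did chat (-1.07, SE 0.354, adjusted p = 0.0509). These 3 genes were named after their values were seen. Of the 10 junction genes, 5 had a negative and 5 a positive log2 fold change. The calls of colq (-0.89) and ache (-0.47) ended without wild type replicate 1, that of ache (-0.49) also without wild type replicate 2, and that of myhz1.2 (0.71) without wild type replicate 2. The part of other muscle genes in the chrng result was not tested.

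Many subunits have duplicated genes in zebrafish, and reads may be split between near-identical copies. Of 56 subunits among the members 26 had more than 1 gene, and for 15 of these 2 copies were tested. The 2 copies had log2 fold changes of the same sign in all 15, with both called for GluN1, 1 called for 7 subunits and none for the other 7. Outside the muscle receptor 49 of 56 tested members had a negative log2 fold change, so most pairs of any kind would share a sign. The widest gap was that of gabrr1 at -1.94 and GABRR1 (1 of 2) at -0.41 (SE 0.199, adjusted p = 0.184), followed by chrnb3b at -1.56 and chrnb3a at -0.57. Both gabrr1 and chrnb3b had low counts and passed the filter through their wild-type pools, so these gaps may be overstated. Differences between copies were not tested. With copies summed before the fit, an alternative chosen after seeing the data, 10 of 48 subunits fell and 1 rose, where 9.86% of all entries tested fell. The gabrr1 sum stood at -0.81 (adjusted p = 0.00892), the alpha6 sum at -2.15 (adjusted p = 5.36e-06), and the beta sum of the glycine receptor at -0.73 (adjusted p = 0.00444). With copies summed, the alpha2 nicotinic and alpha4 glycine subunits passed, at -0.90 (adjusted p = 0.0455) and -0.72 (adjusted p = 0.00961), while the GluN2A, GluA3 and GluA4 subunits did not.

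**Figure D5:**
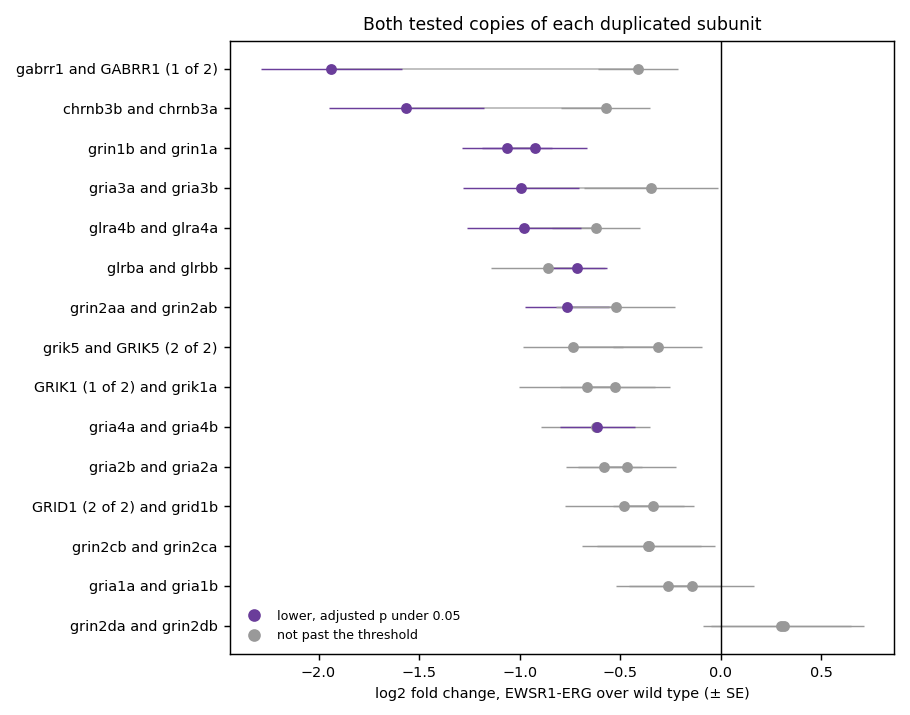
Log2 fold change of EWSR1-ERG over wild type with its SE (horizontal axis) for both tested copies of 15 duplicated subunits. Both copies lie on the same side of 0 in every pair, with the widest gap between gabrr1 at -1.94 and GABRR1 (1 of 2) at -0.41. The low-count gene gabrr1 passed the filter through its wild-type pools. Of all 56 tested members outside the muscle receptor, 49 had a negative log2 fold change.

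Some receptor genes lie side by side. Of the members, 69 could be placed by name in the gene order of RefSeq assembly GRCz12tu, which is not the build of the counts, and 17 pairs had at most 10 protein-coding genes between them. On chromosome 14 the 2 lower genes gabra6a and gabrb2 were direct neighbours, as were glrbb, which fell, and gria2b, which did not pass. On chromosome 6 the neighbours gabra5 and GABRG3, which did not pass, stood at -0.26 and 0.41.

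The wider machinery of each transmitter was also read. Of 41 scaffold and auxiliary genes of glutamate receptors tested, 9 fell and none rose (median -0.47). Among those with the smallest p were NPTXR (1 of 2), for a pentraxin that gathers AMPA receptors (-0.84, adjusted p = 0.00216), and lrrtm1, for a postsynaptic adhesion protein (-0.75, adjusted p = 0.0174). Of 15 genes for glutamate transport, metabolism and metabotropic receptors, 6 fell and 2 rose. Lower were the glutamate uptake transporter genes slc1a2a (-2.57, adjusted p = 0.000102) and slc1a2b (-0.99, adjusted p = 0.000188) and the vesicular transporter gene slc17a6b. Higher were glulb, for glutamine synthetase (0.53, adjusted p = 0.00464), and the metabotropic receptor gene grm3 (0.87, adjusted p = 0.0338). Of 19 genes of inhibitory transmission, 4 fell and none rose (median -0.44). They included gad1b, which makes GABA (-1.01, adjusted p = 0.00966), the GABA uptake gene slc6a1b (-0.78, adjusted p = 0.0137) and the gephyrin gene gphnb (-0.74, adjusted p = 0.0278). Fewer genes passed with a wild-type pool left out. Of all genes tested, 6.34% fell without wild type replicate 1 and 5.43% without wild type replicate 2, against 9.87% with every pool. Several of the calls above ended with 1 pool left out. Without wild type replicate 1, those of lrrtm1 (-0.50), gad1b (-0.87), slc6a1b (-0.66) and gphnb (-0.75) ended. Without wild type replicate 2, those of glulb (0.49) and gphnb (-0.62) ended. That of grm3 held without wild type replicate 3 and ended with any other pool left out (0.80 to 0.92). Of 5 tested genes for other cholinergic proteins, 3 nicotinic receptor partners (lypd6, lypd6b and tmem35) and the muscarinic receptor genes chrm2a and chrm4a, none passed by edgeR, none had an unadjusted p under 0.05, and DESeq2 and limma-voom called none.

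Markers of the cells that hold these receptors moved as follows, beside 9.87% of all tested genes that fell and 7.46% that rose. Of 40 pan-neuronal genes tested 17 fell and none rose, with a median log2 fold change of -0.44, beside -0.55 for the 56 members outside the muscle receptor. Their summed level was 2170 to 2907 CPM in EWSR1-ERG pools and 3114 to 4080 CPM in wild-type pools. Photoreceptor genes fell in 23 of 24 cases, with sums of 1179 to 1366 CPM in EWSR1-ERG pools and 8530 to 9060 CPM in wild-type pools. Of 19 genes of the inner retina, where bipolar cells lie, 6 fell, among them the bipolar cell genes trpm1b (-1.18, adjusted p = 0.00032), trpm1a (-1.86, adjusted p = 0.000783) and nyx (-1.69, adjusted p = 0.00234). Of 18 cerebellar genes 5 fell, among them the Purkinje cell gene pvalb7 (-1.28, adjusted p = 2.21e-05). The other 13 cerebellar genes did not pass, and 4 of the 18 had a positive log2 fold change. The cerebellar sums were 420 to 553 CPM in EWSR1-ERG pools and 684 to 699 CPM in wild-type pools. In these sums neurod averaged 125 CPM in EWSR1-ERG pools and 174 CPM in wild-type pools. Of the remaining lists, 6 of 10 oligodendrocyte genes fell, 6 of 23 radial glia and progenitor genes fell and 2 rose, and 14 of 15 myeloid and 6 of 10 erythroid genes rose. Myeloid sums were 1743 to 2812 CPM in EWSR1-ERG pools and 836 to 1180 CPM in wild-type pools, most of it from apoeb. Without apoeb, a sum taken after seeing the data, they were 310 to 413 CPM in EWSR1-ERG pools and 108 to 122 CPM in wild-type pools. No gene of these lists was at 0 in all libraries. The part of these cell types in the receptor results was not tested.

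The 22 members that did not pass the filter had 12 to 69 counts in total, against a median of 257 for tested members. They comprised 3 NMDA, 1 kainate, 5 GABA-A, 1 glycine, 11 neuronal nicotinic and 1 muscle nicotinic genes. Fitted with no filter, chrna10, whose subunit is known from hair cells, had 19 counts in EWSR1-ERG pools and 38 in wild-type pools (log2 change -1.65 with an SE of 0.450, adjusted p = 0.00881). The alpha7 gene chrna7, which forms a receptor by itself, had 24 counts in EWSR1-ERG pools and 5 in wild-type pools (1.53, SE 0.699, adjusted p = 0.167). The second alpha6 gene gabra6b had 23 counts in EWSR1-ERG pools and 14 in wild-type pools (0.06, SE 0.557, adjusted p = 0.962).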

How the data were processed

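The deposited files give 1 value per Ensembl gene and library. Bowtie2, SAMtools, DESeq and Zv9 appear in the submitters' processing notes; versions, annotation, counting tool and strand are not given in the sources. Values were handled as the authors' expected counts, since every file closes with a size factor that is not whole (not applied); all gene values were whole already. Lines without a gene (2 a file, a blank and the size factor) were dropped. Without strand, reads of overlapping or antisense genes cannot be told apart.

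Genes passing edgeR's filterByExpr (minimum count 10, minimum total 15) were scaled by TMM and compared, EWSR1-ERG over wild type, with edgeR 4.0.16 (quasi-likelihood F test, robust, no covariate; R 4.3.3). P-values were adjusted after Benjamini-Hochberg across 17557 genes, with a threshold of 0.05, and the code was tested on simulated data. The SE is the size of the log2 fold change divided by the square root of F, an approximation. DESeq2 1.42.0, limma 3.58.1, other scalings and filters, a replicate block and each library left out were tried. A count of 0 allows up to 3 counts, or 0.230 to 0.678 CPM, for counting error only.

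Members and 14 gene lists (386 entries, 325 matched by symbol, names table or synonym) were chosen with earlier results of these data known. By rule, named members were those called, up to 4 per class and direction, and the member of highest CPM in each class; list genes were the 3 of smallest p per direction. Symbols are as in the files. A few members and list genes that meet these rules are not reported here.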

Additional observations from a re-analysis of the deposited data

How the results depend on the processing

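The number of lower members was 13 of 61 tested and ran from 6 to 17 with 1 library left out. It was 6 of 61 without wild type replicate 1 (6.34% of all genes tested) and 7 of 64 without wild type replicate 2 (5.43%). Without wild type replicate 3 it was 17 of 66 (9.22%). The filter was run anew each time, so the members tested were not always the same. The number was 3 when tested against a 1.5-fold change, 12 with DESeq2, 11 with limma-voom and 14 of 83 with no filter on low counts. The single higher member, chrng, was called in all of these, and gabra6a and gabrr1 were called in all 14 other settings tried. With the replicate number as a replicate block, 10 members were lower (8.44% of all genes) and 1 higher; the calls of gria4b, grin2aa, glra4b and chrnd ended and glrba passed. Deviations of log2 CPM from the group means correlated at -0.123, 0.088 and -0.021 between same-numbered pools. Between pools of other numbers they correlated at -0.197 to 0.174. So few pools cannot settle whether equal numbers share a clutch. The neuronal nicotinic median ranged from -0.97 to -0.40 with 1 library left out (-0.69 with all), over the genes that passed the filter each time, which can differ. For the log2 ratio of GLRA1 to GLRA2, the difference of EWSR1-ERG minus wild-type means was 0.37 with all libraries. It ranged from -0.13 without wild type replicate 1 to 0.86 without wild type replicate 3. Values near 0 turned sign for chrnb2b (-0.0035 with upper quartile scaling, -0.0062 without EWSR1-ERG replicate 2, -0.11 without EWSR1-ERG replicate 3, -0.15 without wild type replicate 3; highest 0.12 without wild type replicate 2) and chrna1 (0.11 at most, without EWSR1-ERG replicate 1, -0.01 without EWSR1-ERG replicate 2, -0.0425 without EWSR1-ERG replicate 3, -0.0066 without wild type replicate 2). The cause was not tested. EWSR1-ERG replicate 3 was the deepest library and its header names another sequencing lane. Without it, 15 of 65 members tested were lower (9.02% of all genes). Low counts left 11 of 17 neuronal nicotinic genes untested.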
